A study of Mus musculus with 36 samples.

Results

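Motor neurons kept for 3 days in medium of mutant SOD1 astrocytes were compared, gene by gene, with motor neurons kept for 3 days in medium of wild-type SOD1 astrocytes. The comparison rests on 12 of the 36 libraries of the series, the 6 titled mSOD1 transgenic and the 6 titled wtSOD1 transgenic at 3 days, taken by their titles. The spread of each gene was estimated over all 36 libraries. RNA sequencing gave whole-number read counts for 21761 genes, of which 15207 passed the filter on low counts and were tested. The neurons were made from embryonic stem cells of the strain transgenic Hlxb9-GFP1Tmj, which carry eGFP with or without CD2 under the promoter of the motor neuron transcription factor HB9 (Mnx1), and they were sorted with magnetic beads through CD2. The sources used here do not give how many stem cell clones were used. Both media were conditioned by astrocyte monolayers of newborn pups from crosses of non-transgenic mice with mice that over-expressed either G93A mutant SOD1 (mSOD1) or wild-type SOD1 (wtSOD1). Spinal cords or cortices supplied the astrocytes, and the sources used here do not give which of them stood behind a library. Microglia had been shaken off, and every medium held added glucose, antibiotics, GDNF, BDNF and CNTF. The 6 libraries of day 3 in medium of non-transgenic astrocytes (NTg) and the 6 and 6 of day 1 in the 2 SOD1 media serve as reference values, and a time zero control named in the series' description was not analysed here. Libraries carry experiment numbers 1 to 6, and those with the same number were treated as pairs. The main test does not use the pairs, and a fit of all 36 libraries with experiment number as a block (below, the block) is given beside the lists and genes described where it changes a call or a count by over 1.5 times. Nothing in the labels says more of how far the libraries of a group were separate cultures, so p-values measure the spread between these libraries.

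SOD1 is a cytosolic enzyme that removes superoxide, and dominant mutations in it cause a familial form of amyotrophic lateral sclerosis, in which motor neurons die. Astrocytes that carry the mutant enzyme release factors harmful to motor neurons in culture, and astrocytes with the wild-type transgene are the usual control for the amount of the protein. Among the pathways followed here, receptors of the interleukin 6 family join the shared subunit gp130 and act through the transcription factor STAT3, a route that injured motor neurons use. The transcription factor ATF4 raises genes of amino acid supply when protein synthesis is under stress, and the nuclear receptors LXR switch on cholesterol exporters when sterols accumulate.

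Of the 15207 genes tested, 377 rose in mSOD1 relative to wtSOD1 medium and 136 fell (edgeR quasi-likelihood test, Benjamini-Hochberg adjusted p below 0.05), which is 2.48% and 0.894% of the genes, or 3.37% in either direction. Most differences were small. Of the 513 genes past the threshold 17 differed by over 2-fold, 13 of them higher, and the median size of a log2 difference was 0.32. Direction was shared by 6 of 6 same-numbered pairs for 503 of the 513 genes and by at least 5 pairs for all of them. These genes were chosen by a difference between the same 12 libraries. Shared direction is therefore no separate support, here or for single genes below. Over all genes tested the median log2 difference was -0.0035. The 12 libraries did not overlap between the media for 180 genes higher in mSOD1 medium (1.18% of those tested) and for 119 genes lower (0.783%).

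**Figure D1:**
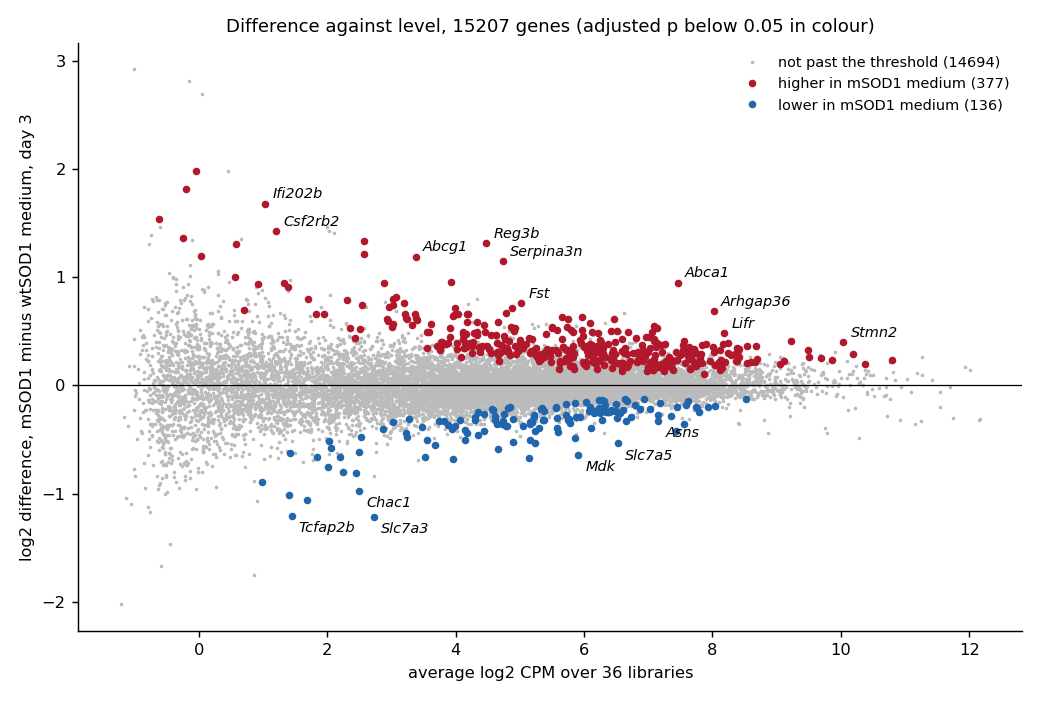
Each point is 1 of 15207 genes, with its average log2 CPM over 36 libraries on the x axis and its log2 difference, mSOD1 minus wtSOD1 medium on day 3, on the y axis. Red points are the 377 genes that rose and blue points the 136 that fell. Most coloured points lie close to the line at 0, and few reach a difference of 1.

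Library size was 10.5 to 16.9 M reads in mSOD1 medium and 11.6 to 23.1 M reads in wtSOD1 medium. Libraries 3 and 4 in wtSOD1 medium stood apart, with 5985 and 9368 counts per M reads (CPM) of 2610528E23Rik against 436 to 2749 CPM in the other 4 wtSOD1 libraries and 1470 to 3669 CPM in mSOD1 medium. Without both of them 147 genes rose and 38 fell. The first principal component of the 18 day 3 libraries (22.4% of the variance) ran from -30.0 in mSOD1 library 1 to 20.3 in wtSOD1 library 2. Leaving out 1 library at a time gave fewer calls in all without mSOD1 library 1 (223), 3 (240), 5 (463) or 6 (354). The same held without wtSOD1 library 2 (205), 3 (464), 4 (255), 5 (354) or 6 (315). More were called without mSOD1 library 2 (977) or 4 (617) or wtSOD1 library 1 (1346). With the experiment number as a block 1441 genes rose (9.48%) and 925 fell (6.08%), and all 513 genes were among them. In a fit of the 12 libraries alone without the block, 211 genes rose and 109 fell, with 260 of the 513 among them. There 31 of the genes named by rule (given below) lost their call, Elavl4, Gap43, Nefh and Prph among them. Sod1 itself measured 36.7, 39.1 and 40.4 CPM in mSOD1 medium and 40.3, 41.6 and 44.6 CPM in wtSOD1 medium (lowest, median and highest of 6 libraries, the order used throughout), a log2 difference of -0.11 ± 0.08 (adjusted p = 0.487). Motor neuron markers were present in every library, their 8 genes summing to 767 to 1082 CPM in mSOD1 medium and 534 to 917 CPM in wtSOD1 medium. Most of this was Prph (median 539 and 418 CPM), while Isl2 (3.2 and 2.69 CPM) and Lhx3 (1.51 and 1.56 CPM) were low.

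Receptor chains of gp130 signalling and the feedback gene Socs2 were among the genes that rose in mSOD1 medium. Of 29 members of the list of gp130 receptors and STAT3 feedback that were tested, 7 rose, 0 fell and 22 did not pass (median log2 difference 0.16), where 2.48% of all genes rose. The difference was positive for 20 of the 29 and negative for 9. The risen members were the receptor chains Osmr, Lifr and Il6st, the feedback inhibitor Socs2, the transcriptional cofactor Bcl3, and the secreted inhibitors Serpina3n and Timp1. Omitting single libraries gave 7 to 10 risen members. With the block, where 9.48% of all genes rose and 6.08% fell, 15 members rose and 1 fell. In RNA from whole cultures, fewer cells of a type and less RNA per cell cannot be told apart, here or below.

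Osmr, the receptor of oncostatin M, measured 39.1, 44 and 49.3 CPM in mSOD1 medium and 27.9, 31.1 and 34.5 CPM in wtSOD1 medium. Every mSOD1 library lay above every wtSOD1 library, and the log2 difference was 0.53 ± 0.07 (estimate ± SE, adjusted p = 1.99e-06, 6 of 6 pairs). Lifr, which binds LIF and, with a further subunit, CNTF, measured 375, 394 and 453 CPM in mSOD1 medium and 270.2, 289 and 328 CPM in wtSOD1 medium. Its groups did not overlap either, with library 3 the highest in mSOD1 medium, and it rose by 0.48 ± 0.07 (adjusted p = 9.04e-05, 6 of 6). Il6st, which encodes gp130, measured 243, 250.4 and 288 CPM in mSOD1 medium and 210.0, 219.9 and 229 CPM in wtSOD1 medium. The lowest mSOD1 library was above the highest wtSOD1 library, a rise of 0.22 ± 0.04 (adjusted p = 0.00177, 6 of 6). Socs2, a brake on cytokine and growth hormone signalling, measured 78.8, 84.6 and 101 CPM in mSOD1 medium and 54.1, 58.4 and 77 CPM in wtSOD1 medium. No library crossed between the media, and Socs2 rose by 0.49 ± 0.07 (adjusted p = 2.16e-05, 6 of 6). The 4 calls held when each of the 12 libraries was left out in turn.

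Secreted proteins and cytokine-linked genes were among the largest rises. Reg3b, a lectin that injured neurons and gut secrete, measured 49.4, 58.9 and 84 CPM in mSOD1 medium and 16.2, 24.4 and 34.1 CPM in wtSOD1 medium. Library 1 was the highest in each medium, and the groups did not overlap, a rise of 1.31 ± 0.14 or 2.48-fold (adjusted p = 2.35e-07, 6 of 6). Serpina3n, a protease inhibitor, measured 52.8, 54.9 and 86.5 CPM in mSOD1 medium and 18.5, 26.9 and 44.9 CPM in wtSOD1 medium. Library 1 was again the highest in each medium and no library crossed over, a rise of 1.15 ± 0.19 (adjusted p = 0.000323, 6 of 6). Its family members Serpina3h and Serpina3i rose by 1.21 ± 0.25 (adjusted p = 0.00306) and 1.33 ± 0.34 (adjusted p = 0.0214). These genes are near-identical copies whose reads may have been split or shared, so their values are uncertain one by one, and the call of Serpina3i was lost without mSOD1 library 1 or 3 or wtSOD1 library 2 or 5, adjusted p up to 0.0911.

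Csf2rb2, a receptor chain for interleukin 3, measured 3.69, 4.44 and 5.46 CPM in mSOD1 medium and 1.34, 1.58 and 2.46 CPM in wtSOD1 medium. The groups did not overlap, and the rise of 1.42 ± 0.20 was 2.68-fold (adjusted p = 2.16e-05, 6 of 6). Csf2rb2 also has a close paralog, Csf2rb. Prdm1, a transcriptional repressor that cytokines induce in lymphocytes, measured 17.1, 23.6 and 26.6 CPM in mSOD1 medium and 10.3, 11.1 and 16 CPM in wtSOD1 medium. Its lowest mSOD1 library lay just above its highest wtSOD1 library, and it rose by 0.95 ± 0.13 (adjusted p = 1.56e-05, 6 of 6). Timp1, an inhibitor of matrix metalloproteases, rose by 0.32 ± 0.07 (adjusted p = 0.00751). It is one of several genes, each marked as named for the count or given in a count of list members, that were chosen after their values were seen.

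**Figure D2:**
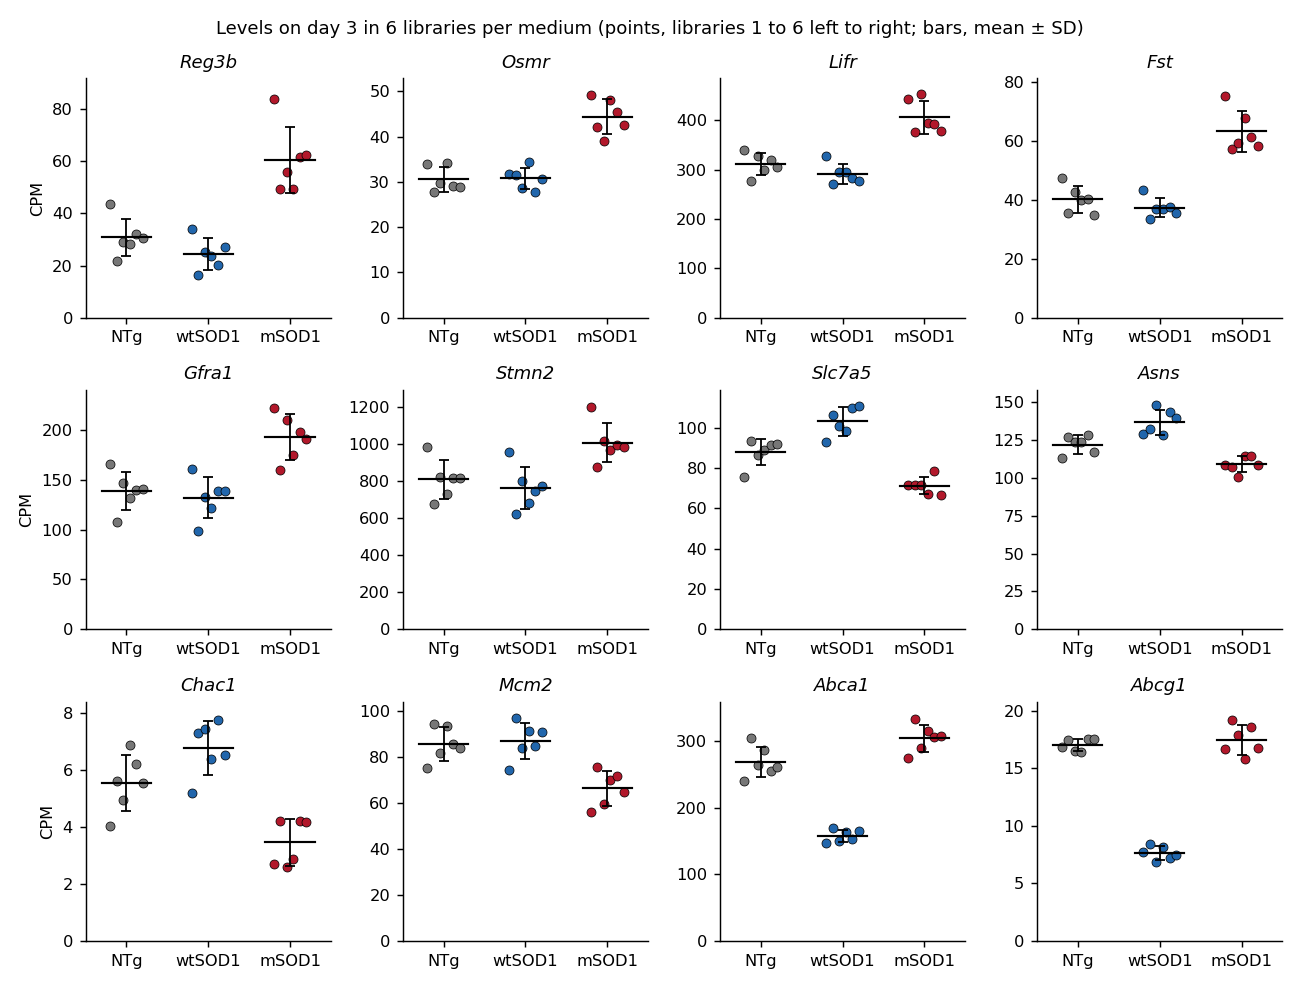
Points give the level in CPM (y axis, starting at 0) of 12 genes in the 6 libraries of each medium on day 3, in the order of experiments 1 to 6, with the mean and SD as black bars. Reg3b, Osmr, Lifr and Fst stand higher in mSOD1 medium than in both other media, Slc7a5, Asns, Chac1 and Mcm2 stand lower there, and Abca1 and Abcg1 are low in wtSOD1 medium.

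Of 22 genes that neurons share 5 rose in mSOD1 medium and 0 fell, where 2.48% of all genes rose, the remaining 17 did not pass, and the median was 0.22. The 5 were Stmn2, Gap43, Elavl2, Elavl4 and Mapt, the last named for the count. Stmn2, a microtubule regulator of growing axons, measured 877, 986 and 1199 CPM in mSOD1 medium and 622, 761 and 954 CPM in wtSOD1 medium. The groups overlapped, while every mSOD1 library exceeded its own pair, a rise of 0.40 ± 0.08 (adjusted p = 0.00197, 6 of 6). Elavl2, an RNA-binding protein of neurons, measured 242, 278 and 326 CPM in mSOD1 medium and 195, 218 and 262 CPM in wtSOD1 medium. Its groups overlapped too, and it rose by 0.35 ± 0.07 (adjusted p = 0.00252, 6 of 6), beside its relative Elavl4 at 0.32 ± 0.07 (adjusted p = 0.00418). Gap43, a growth cone protein, rose by 0.26 ± 0.07 (adjusted p = 0.02), a call lost without mSOD1 library 1 or wtSOD1 library 2 or 4, adjusted p up to 0.0831, and Mapt (tau) by 0.29 ± 0.08 (adjusted p = 0.0373), lost without mSOD1 library 1, 3, 5 or 6 or wtSOD1 library 2, 4, 5 or 6, adjusted p up to 0.151. With the block, where 9.48% of all genes rose, 21 of the 22 rose, and with single libraries left out 3 (without mSOD1 library 1 or wtSOD1 library 2 or 4) to 16 (without wtSOD1 library 1).

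Summed marker levels of other cells were compared beside these genes. Over all genes tested, 2.48% rose and 0.894% fell without the block. The 7 markers of dividing cells, of which Mcm2 and Mcm5 fell, summed to 731 to 1082 CPM in mSOD1 medium and 888 to 1344 CPM in wtSOD1 medium. The 7 neural progenitor markers, none of which passed, summed to 2741 to 3325 CPM in mSOD1 medium and 3153 to 3539 CPM in wtSOD1 medium, mostly Vim (median 1953 and 2108 CPM). The 7 pan-neuronal markers, of which 2 rose, summed to 2895 to 3952 CPM in mSOD1 medium and 2235 to 3353 CPM in wtSOD1 medium. Astrocyte markers summed to 1277 to 1696 CPM in mSOD1 medium and 1167 to 1606 CPM in wtSOD1 medium, mostly Fabp7 (median 964 and 896 CPM). Of the 8 tested, 4 had a positive and 4 a negative difference. Gfap, their defining gene, was near 0, at 0.0742 to 1.4 CPM and 0.373 to 0.866 CPM. Microglial markers summed to 11.4 to 17 CPM in mSOD1 medium and 13.4 to 14.7 CPM in wtSOD1 medium, mostly P2ry12, and C1qa was at 0 in all 12 libraries. Oligodendrocyte markers summed to 79.5 to 97.7 CPM in mSOD1 medium and 72.5 to 89 CPM in wtSOD1 medium and mesenchymal markers to 154 to 240.1 CPM in mSOD1 medium and 185 to 273 CPM in wtSOD1 medium, with no member past the threshold in either list, nor in the lists of astrocyte, microglial, endothelial and pluripotent cell markers. With the block, where 9.48% of all genes rose and 6.08% fell, all 7 markers of dividing cells fell. So did 4 of 7 neural progenitor markers (Sox2, Sox3, Nes and Vim) and 3 of 7 mesenchymal markers tested (Dcn, Col1a2 and Prrx1). Of 8 astrocyte markers tested 2 fell (Slc1a3 and Slc1a2). All 7 pan-neuronal markers rose, and of the 8 motor neuron markers 4 rose (1 without the block). The part of any of these cells in the neuronal or the replication genes was not tested.

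Of 27 motor neuron identity genes 5 rose and 0 fell (median 0.21), where 2.48% of all genes rose. With the block, where 9.48% of all genes rose, 11 of the 27 rose. With single libraries left out and no block, the count ran from 3 (without any 1 of 6 libraries) to 7 (without mSOD1 library 2 or wtSOD1 library 1). Gfra1, a receptor for GDNF, measured 159.7, 194 and 222 CPM in mSOD1 medium and 98.9, 136 and 161 CPM in wtSOD1 medium. The lowest mSOD1 library was within the range of wtSOD1 medium, and the rise of 0.55 ± 0.09 was seen in 6 of 6 pairs (adjusted p = 0.00048). Nrg1, a neuregulin that motor neurons make, rose by 0.35 ± 0.08 (adjusted p = 0.00494), the adhesion molecule Cdh20 by 0.43 ± 0.09 (adjusted p = 0.00607), and the GDNF signalling receptor Ret by 0.28 ± 0.08 (adjusted p = 0.032). Only the call of Ret among these 4 was lost with single libraries left out (without mSOD1 library 1, 3 or 6 or wtSOD1 library 2, 4 or 5, adjusted p up to 0.128). The identity factors Mnx1 and Isl1 did not pass, at 0.19 ± 0.14 (adjusted p = 0.505) and 0.08 ± 0.11 (adjusted p = 0.774). Mnx1 did not pass with the block in all 36 libraries either (adjusted p = 0.118). It passed in a fit of the 12 libraries alone with the experiment as a block (adjusted p = 0.00792).

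Chat, the enzyme that makes acetylcholine, measured 78.8, 98.4 and 116 CPM in mSOD1 medium and 55.9, 77.7 and 92.2 CPM in wtSOD1 medium. The ranges overlapped, each mSOD1 library exceeded its pair, and the difference of 0.36 ± 0.11 missed the threshold (adjusted p = 0.0511) and passed with the block (adjusted p = 1.73e-06). Among 16 cholinergic genes 2 rose and 1 fell, where 2.48% of all genes rose and 0.894% fell. With the block, where 9.48% of all genes rose, 6 of the 16 rose. The muscarinic receptor Chrm3 measured 22.1, 28.6 and 44.9 CPM in mSOD1 medium and 14.6, 19.7 and 21.9 CPM in wtSOD1 medium. Without overlap, and with library 3 far above the other mSOD1 libraries, it rose by 0.64 ± 0.15 (adjusted p = 0.00951), a call lost without mSOD1 library 3, adjusted p = 0.0646. The nicotinic subunit Chrnb2, whose exons overlap Adar in a GENCODE annotation, rose by 0.30 ± 0.08 (adjusted p = 0.0266, lost without mSOD1 library 1 or 6 or wtSOD1 library 2, 4 or 5, adjusted p up to 0.116). Bche, which degrades choline esters, fell by 0.38 ± 0.10 (adjusted p = 0.032, lost without mSOD1 library 1, 3, 5 or 6 or wtSOD1 library 2 or 4, adjusted p up to 0.182).

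Of 5 neurofilament genes, the intermediate filaments of axons, 2 rose (median 0.27), where 2.48% of all genes rose. With the block, where 9.48% of all genes rose, all 5 rose. Nefh, the heavy chain, measured 65.4, 73.6 and 107 CPM in mSOD1 medium and 40.1, 54.5 and 73 CPM in wtSOD1 medium. Experiment 1 gave the highest library in both media, the ranges overlapped, and the rise was 0.51 ± 0.12 (adjusted p = 0.0125, 6 of 6, lost without mSOD1 library 1 or wtSOD1 library 2, adjusted p up to 0.0605). Prph, peripherin, rose by 0.41 ± 0.11 (adjusted p = 0.0343, lost without mSOD1 library 1, 3, 5 or 6 or wtSOD1 library 2, 4, 5 or 6, adjusted p up to 0.125). Nefm and Nefl, whose exons overlap each other in the annotation, stood at 0.27 ± 0.09 (adjusted p = 0.105, 1.22e-07 with the block) and 0.22 ± 0.11 (adjusted p = 0.305, 8.84e-05 with the block).

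Of the genes of the synapse and of excitability more passed with the block than without it. Without it 4 of 30 genes of synaptic vesicles and release rose and 0 fell (median 0.18), where 2.48% of all genes rose, and with the block, where 9.48% of all genes rose, 18 rose and 1 fell. With single libraries left out 1 (without mSOD1 library 1 or 3 or wtSOD1 library 2 or 4) to 14 (without wtSOD1 library 1) rose. Among the 4 risen without the block, the vesicle SNARE Vamp1 rose by 0.35 ± 0.08 (adjusted p = 0.00766) and the membrane SNARE Stx1a by 0.31 ± 0.08 (adjusted p = 0.0214). The calcium sensor Syt2 rose by 0.38 ± 0.10 (adjusted p = 0.0325) and the synapsin Syn2, whose exons overlap Timp4, by 0.22 ± 0.06 (adjusted p = 0.045). Of the 4, Vamp1 kept its call with every single library left out, Stx1a lost it without mSOD1 library 1 or 3 or wtSOD1 library 2 or 4, adjusted p up to 0.0977, Syt2 without mSOD1 library 1, 3, 5 or 6 or wtSOD1 library 2, 4, 5 or 6, adjusted p up to 0.117, and Syn2 without mSOD1 library 1, 3 or 6 or wtSOD1 library 2, 3, 4, 5 or 6, adjusted p up to 0.192. Of 23 potassium channel genes 3 rose, the subunits Dpp10 (0.45 ± 0.10, adjusted p = 0.01), Kcnab1 (0.33 ± 0.08, adjusted p = 0.0154) and Dpp6 (0.37 ± 0.10, adjusted p = 0.0235), and 8 rose with the block. These calls were lost without mSOD1 library 3, adjusted p = 0.0557 (Dpp10), without mSOD1 library 3 or wtSOD1 library 2, adjusted p up to 0.0749 (Kcnab1) and without mSOD1 library 1 or 3 or wtSOD1 library 2, 4 or 6, adjusted p up to 0.118 (Dpp6). Of 23 sodium and calcium channel genes 1 rose, the calcium channel subunit Cacna2d3 (0.33 ± 0.09, adjusted p = 0.0367, lost without mSOD1 library 1, 3 or 6 or wtSOD1 library 2, 4, 5 or 6, adjusted p up to 0.156), 0 (without any 1 of 6 libraries) to 10 (without wtSOD1 library 1) rose with single libraries left out, and 15 with the block. Scn9a, Scn3b and Cacna2d1 stood at 0.25, 0.20 and 0.24, did not pass (adjusted p = 0.0611, 0.0664 and 0.0738), and passed with the block (adjusted p = 0.000206, 0.000197 and 0.000923).

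Among 31 receptors for glutamate, GABA and glycine 4 rose, of which 3 are described, where 2.48% of all genes rose. With the block, where 9.48% of all genes rose, 14 of the 31 rose. Single omissions left 0 (without mSOD1 library 3) to 10 (without wtSOD1 library 1). Gabrg3, a GABA receptor subunit, measured 7.29, 11 and 22.2 CPM in mSOD1 medium and 5.53, 7.78 and 8.84 CPM in wtSOD1 medium. Library 3 in mSOD1 medium was the highest by a wide margin, the ranges overlapped, and the rise was 0.72 ± 0.17 (adjusted p = 0.0108, lost without mSOD1 library 3, adjusted p = 0.0991). Grin2a, an NMDA receptor subunit, measured 15.3, 17.1 and 32.6 CPM in mSOD1 medium and 9.86, 12.5 and 16.5 CPM in wtSOD1 medium. The same library 3 stood highest, and the rise was 0.64 ± 0.18 (adjusted p = 0.0379, lost without mSOD1 library 1, 3 or 6 or wtSOD1 library 2, 3, 4, 5 or 6, adjusted p up to 0.209). Glra2, a glycine receptor subunit, rose by 0.39 ± 0.10 (adjusted p = 0.0231, lost without mSOD1 library 1 or 3 or wtSOD1 library 2 or 4, adjusted p up to 0.1).

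Of 40 axon guidance genes 6 rose and 1 fell (median 0.10), where 2.48% of all genes rose and 0.894% fell. With single libraries left out 2 (without mSOD1 library 3 or wtSOD1 library 2) to 10 (without wtSOD1 library 1) rose. With the block, where 9.48% of all genes rose and 6.08% fell, 12 of the 40 rose and 6 fell. Ephb1, an ephrin receptor, measured 64.2, 69.3 and 92.5 CPM in mSOD1 medium and 43.7, 48.8 and 64.1 CPM in wtSOD1 medium. The media did not overlap, though the 2 ranges nearly touched, and Ephb1 rose by 0.57 ± 0.09 (adjusted p = 0.000116, 6 of 6). The netrin receptors Unc5c and Dcc rose by 0.50 ± 0.12 (adjusted p = 0.0106) and 0.41 ± 0.10 (adjusted p = 0.0205), and the semaphorin receptor Nrp1 by 0.31 ± 0.06 (adjusted p = 0.00299). Nfasc and Ptpro also rose, by 0.33 ± 0.09 and 0.35 ± 0.09, and the ephrin receptor Epha5 fell by 0.20 ± 0.05 (adjusted p = 0.0207), these 3 named for the count and lost without mSOD1 library 1, 3, 5 or 6 or wtSOD1 library 2, 3, 4 or 6, adjusted p up to 0.14 (Nfasc), without mSOD1 library 1 or 3 or wtSOD1 library 2, 4 or 6, adjusted p up to 0.0983 (Ptpro) and without mSOD1 library 1, 3, 5 or 6 or wtSOD1 library 2 or 4, adjusted p up to 0.0932 (Epha5). With single libraries left out Ephb1 and Nrp1 kept their calls, Unc5c lost its call without mSOD1 library 3 or wtSOD1 library 2, adjusted p up to 0.0547, and Dcc without mSOD1 library 1 or 3 or wtSOD1 library 2 or 6, adjusted p up to 0.103.

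Growth factor receptors overlap with the lists above. Of 17 genes of GDNF, neurotrophin and neuregulin signalling 5 rose and 0 fell (median 0.24), where 2.48% of all genes rose and 0.894% fell. The risen genes were Gfra1, Gfra2, Ret, Nrg1 and Lifr. With the block, where 9.48% of all genes rose and 6.08% fell, 8 of the 17 rose and 2 fell. Gfra2, a receptor for neurturin, measured 13.3, 14.4 and 17.9 CPM in mSOD1 medium and 8.94, 9.97 and 11.7 CPM in wtSOD1 medium. All mSOD1 libraries exceeded all wtSOD1 libraries, a rise of 0.56 ± 0.11 (adjusted p = 0.00185, 6 of 6). Of 26 axon injury and regeneration genes 7 rose, which adds Reg3b and the transcription factor Klf7 (0.33 ± 0.10, adjusted p = 0.0407, lost without mSOD1 library 1, 3 or 5 or wtSOD1 library 2, 3, 4 or 6, adjusted p up to 0.19) to Gap43, Stmn2, Lifr, Il6st and Gfra1, and 13 rose with the block.

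Secreted signals outside these lists rose as well. Fst encodes follistatin, which binds and blocks activins, and measured 57.4, 60.4 and 75.4 CPM in mSOD1 medium and 33.7, 37.1 and 43.4 CPM in wtSOD1 medium. The groups stood clear of each other, a rise of 0.76 ± 0.08 (adjusted p = 1.43e-07, 6 of 6). Acvr1, a BMP and activin receptor, measured 56.7, 63.3 and 67.9 CPM in mSOD1 medium and 44.6, 51.2 and 52 CPM in wtSOD1 medium. Its groups did not overlap, and it rose by 0.32 ± 0.06 (adjusted p = 0.001). Fst and Acvr1 were the 2 of 37 TGF-beta and BMP genes that passed, where 2.48% of all genes rose. With the block, where 9.48% of all genes rose and 6.08% fell, 5 of the 37 rose and 3 fell. Pcsk2, a protease that cleaves neuropeptide precursors, measured 38.3, 43.2 and 48.7 CPM in mSOD1 medium and 23.8, 28.2 and 35.9 CPM in wtSOD1 medium. Every mSOD1 library was higher than every wtSOD1 library, a rise of 0.61 ± 0.08 (adjusted p = 6.19e-06, 6 of 6). The neuropeptide Nts, neurotensin, rose by 0.60 ± 0.13 (adjusted p = 0.00519), and with Pcsk2 made up the 2 of 24 neuropeptide genes that passed (10 rose with the block).

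A further pair of genes had among the 10 lowest p-values. Arhgap36, a GTPase-activating protein that antagonises protein kinase A, measured 210.5, 236 and 289 CPM in mSOD1 medium and 122, 145 and 191 CPM in wtSOD1 medium. No overlap was seen, and the rise was 0.68 ± 0.09 (adjusted p = 6.19e-06, 6 of 6). Nek7, a kinase needed by the NLRP3 inflammasome, measured 79.5, 86.6 and 93.5 CPM in mSOD1 medium and 54.6, 59.9 and 66.6 CPM in wtSOD1 medium. All 6 mSOD1 libraries lay above the wtSOD1 range, a rise of 0.51 ± 0.06 (adjusted p = 1.23e-07, 6 of 6).

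Of 32 genes of the ATF4 response to amino acid shortage 14 fell in mSOD1 medium, 1 rose and 17 did not pass (median -0.33), where 0.894% of all genes fell, and 9 of the 32 were lower without overlap (0.783% of all genes). The fallen members covered amino acid carriers (Slc7a5, Slc3a2, Slc7a3), synthesis of asparagine, serine, proline and alanine (Asns, Psat1, Psph, Pycr1, Gpt2), mitochondrial folate metabolism (Shmt2, Mthfd2), regulators (Atf5, Trib3, Sesn2) and the glutathione-degrading enzyme Chac1. The amino acid carrier Slc38a2 rose by 0.16 ± 0.05 (adjusted p = 0.0452), a call lost without mSOD1 library 1, 3 or 6 or wtSOD1 library 2, 3, 4, 5 or 6, adjusted p up to 0.157. Between 11 (without mSOD1 library 3 or wtSOD1 library 2) and 17 members fell with single libraries left out, 12 without wtSOD1 libraries 3 and 4, and 20 with the block, where 6.08% of all genes fell. Psat1, Psph, Shmt2, Gpt2 and Atf5 fell by 0.42, 0.33, 0.50, 0.30 and 0.52 (adjusted p = 0.00299, 0.0452, 0.00177, 0.00448 and 0.00628). The call of Psph was lost without mSOD1 library 1, 3, 4 or 5 or wtSOD1 library 2, 4, 5 or 6, adjusted p up to 0.152, and the other 4 held with each library left out.

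Slc7a5, the light chain of the carrier of large neutral amino acids, measured 66.6, 71.7 and 78.4 CPM in mSOD1 medium and 93.2, 104 and 111 CPM in wtSOD1 medium. All mSOD1 libraries lay below all wtSOD1 libraries, and Slc7a5 fell by 0.54 ± 0.06 (adjusted p = 8.13e-07, lower in 6 of 6 pairs). Its heavy chain Slc3a2 measured 77.1, 83.2 and 89.3 CPM in mSOD1 medium and 96.5, 104 and 112 CPM in wtSOD1 medium. Here too the groups stayed apart, a fall by 0.33 ± 0.06 (adjusted p = 0.000323, 6 of 6). Slc7a3, a carrier of arginine and lysine, measured 3.56, 3.78 and 5.29 CPM in mSOD1 medium and 7.35, 9.05 and 13.3 CPM in wtSOD1 medium. It fell by 1.22 ± 0.23 (adjusted p = 0.00127, 6 of 6), with no overlap.

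Asns, asparagine synthetase, measured 101, 109 and 115 CPM in mSOD1 medium and 128, 136 and 148 CPM in wtSOD1 medium. The groups did not overlap, and Asns fell by 0.33 ± 0.06 (adjusted p = 0.000671, 6 of 6). Chac1 measured 2.6, 3.52 and 4.23 CPM in mSOD1 medium and 5.2, 6.92 and 7.75 CPM in wtSOD1 medium. Its highest mSOD1 library was below its lowest wtSOD1 library, a fall by 0.98 ± 0.18 (adjusted p = 0.001, 6 of 6). Mthfd2, which oxidises folate in mitochondria, measured 26.9, 28.6 and 34.4 CPM in mSOD1 medium and 34.3, 39 and 43.5 CPM in wtSOD1 medium. The ranges met at about 34 CPM, and Mthfd2 fell by 0.40 ± 0.06 (adjusted p = 0.0002, 6 of 6). Trib3, a pseudokinase that restrains ATF4, measured 2.14, 2.3 and 2.81 CPM in mSOD1 medium and 2.92, 3.64 and 4.96 CPM in wtSOD1 medium. It fell by 0.67 ± 0.17 (adjusted p = 0.017), a call lost without mSOD1 library 3 or wtSOD1 library 6, adjusted p up to 0.0625. Pycr1, which completes proline synthesis, fell by 0.44 ± 0.11 (adjusted p = 0.017), lost without wtSOD1 library 2 or 5, adjusted p up to 0.0795.

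Promoter windows of 4 fallen members hold the letters of the amino acid response element, TGATGNAA, searched on both strands from 250 bases before to 50 after the start of transcription. They are shown because the element is the sequence through which ATF4 is known to act, and capitals mark the match. The windows are from RefSeq on GRCm38.p6, 5′ to 3′ on the strand of the gene, with Asns at chr6:7693160-7693459 (minus strand, the match beginning 23 bases before the start), Chac1 at chr2:119350992-119351291 (plus strand, 193 before), Trib3 at chr2:152344011-152344310 (minus strand, 14 after) and Pycr1 at chr11:120643699-120643998 (minus strand, 103 before). Asns and Pycr1 carry the letters forward, Chac1 and Trib3 as the reverse complement.
Asns: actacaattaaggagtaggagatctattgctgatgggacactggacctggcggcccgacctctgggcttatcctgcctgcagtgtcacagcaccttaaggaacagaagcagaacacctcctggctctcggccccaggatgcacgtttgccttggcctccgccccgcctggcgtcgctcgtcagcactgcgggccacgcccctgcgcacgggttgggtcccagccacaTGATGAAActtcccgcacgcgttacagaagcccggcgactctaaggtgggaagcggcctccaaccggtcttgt
Chac1: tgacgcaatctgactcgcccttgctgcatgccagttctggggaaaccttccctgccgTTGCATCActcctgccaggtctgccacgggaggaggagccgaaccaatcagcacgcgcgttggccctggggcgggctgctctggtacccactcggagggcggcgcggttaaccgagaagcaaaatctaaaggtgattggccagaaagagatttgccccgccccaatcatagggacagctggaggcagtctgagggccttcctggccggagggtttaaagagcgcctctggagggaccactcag
Trib3: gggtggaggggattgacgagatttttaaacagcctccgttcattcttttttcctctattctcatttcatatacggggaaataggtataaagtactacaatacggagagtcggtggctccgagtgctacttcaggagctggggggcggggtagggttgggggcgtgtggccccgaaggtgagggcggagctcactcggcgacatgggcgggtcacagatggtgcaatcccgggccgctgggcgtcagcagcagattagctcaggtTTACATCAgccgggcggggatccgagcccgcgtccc
Pycr1: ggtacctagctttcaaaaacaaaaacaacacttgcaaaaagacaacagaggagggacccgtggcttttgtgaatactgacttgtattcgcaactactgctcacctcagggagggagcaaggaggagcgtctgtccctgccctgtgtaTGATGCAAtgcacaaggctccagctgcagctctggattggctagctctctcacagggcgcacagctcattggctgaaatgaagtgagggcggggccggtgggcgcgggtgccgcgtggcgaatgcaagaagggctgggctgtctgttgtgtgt
These letters occurred in 3.97% of all 32851 promoter windows and in 2.37% of the 14955 windows of the 11737 tested genes (of 15207) that were matched in the table. They were in 9.16% of the 131 windows of genes that fell (12 windows) and in 2.58% of the 426 windows of genes that rose. Of the 14 windows of 12 fallen ATF4 list members 4 held them, Slc7a5 and Slc7a3 having no window in the table, and of the 34 windows of 28 genes of the whole list 9. The letters of a STAT site, TTCNNNGAA, were in 8.3% of all windows, 6.97% of those of tested genes and 9.15% of those of genes that rose. They were in 0 of 7 windows of 6 risen gp130 list members, Socs2 having no window. A match is a description of letters, and a window without one says only that these letters are not in it.

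Of 23 tRNA synthetases, which charge tRNA with amino acids, 4 fell and 0 rose (median -0.09), where 0.894% of all genes fell. With single libraries left out 2 (without wtSOD1 library 2 or 5) to 6 (without wtSOD1 library 1) fell, and with the block, where 6.08% of all genes fell, 8. Mars, for methionine, measured 74.5, 81.6 and 83.8 CPM in mSOD1 medium and 87.8, 94.3 and 101 CPM in wtSOD1 medium. The groups did not overlap, and Mars fell by 0.24 ± 0.05 (adjusted p = 0.00299, 6 of 6), though its exons overlap the stress gene Ddit3 in the annotation. Aars, for alanine, fell by 0.19 ± 0.04 (adjusted p = 0.00709), Cars by 0.24 ± 0.06 (adjusted p = 0.0282, lost without mSOD1 library 1 or wtSOD1 library 2 or 5, adjusted p up to 0.108) and Tars by 0.21 ± 0.06 (adjusted p = 0.036, lost without mSOD1 library 1, 3 or 6 or wtSOD1 library 2, 3, 4, 5 or 6, adjusted p up to 0.144). Exons of Aars overlap Exosc6. Of 29 genes of the unfolded protein response and ER folding 3 fell, Pdia4 by 0.22, Herpud1 by 0.21 and Manf by 0.19 (adjusted p = 0.0308, 0.0427 and 0.0433). These calls were lost without mSOD1 library 1, 3, 5 or 6 or wtSOD1 library 2, 3, 4 or 6, adjusted p up to 0.117 for Pdia4, without mSOD1 library 1, 3, 5 or 6 or wtSOD1 library 2, 3, 4, 5 or 6, adjusted p up to 0.131 for Herpud1 and without mSOD1 library 1, 3, 5 or 6 or wtSOD1 library 2, 3, 4, 5 or 6, adjusted p up to 0.132 for Manf. With single libraries left out 0 (without any 1 of 8 libraries) to 6 (without wtSOD1 library 1) of the 29 fell, and with the block 12. Hspa5, the main ER chaperone, stood at -0.16 ± 0.05 (adjusted p = 0.0799) and passed with the block (adjusted p = 0.00691).

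For 2 cholesterol exporters wtSOD1 medium was the low one. Abca1, which loads cholesterol onto lipoproteins, measured 275, 307 and 334 CPM in mSOD1 medium and 148, 158 and 169 CPM in wtSOD1 medium, with 241, 263 and 306 CPM in NTg medium. No mSOD1 library came near the wtSOD1 range, and the log2 difference was 0.95 ± 0.09 (adjusted p = 4.62e-08, 6 of 6). Abcg1, its partner in export, measured 15.8, 17.3 and 19.2 CPM in mSOD1 medium and 6.84, 7.56 and 8.44 CPM in wtSOD1 medium, with 16.4, 17.2 and 17.5 CPM in NTg medium. It rose by 1.19 ± 0.10 or 2.28-fold and had the lowest p-value of all genes (adjusted p = 1.02e-10). The comparisons of mSOD1 and of wtSOD1 with NTg medium share libraries with each other and with the main comparison, so their values are given side by side only. Against NTg medium, Abca1 stood at 0.18 ± 0.09 in mSOD1 medium (adjusted p = 0.282) and at -0.77 ± 0.09 in wtSOD1 medium (adjusted p = 3.34e-06). For Abcg1 the values were 0.04 ± 0.09 (adjusted p = 0.877) and -1.15 ± 0.10 (adjusted p = 1.95e-10).

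The promoter window of Abca1 is shown because it holds a repeat of 2 half-sites of the type LXR binds, the letters GGTNA repeated after a gap of 5 bases, searched on both strands after the data were seen. It lies at chr4:53159846-53160145 on the minus strand of chromosome 4 (RefSeq, GRCm38.p6), and the match, in capitals, is the reverse complement and begins 67 bases before the start.
Abca1: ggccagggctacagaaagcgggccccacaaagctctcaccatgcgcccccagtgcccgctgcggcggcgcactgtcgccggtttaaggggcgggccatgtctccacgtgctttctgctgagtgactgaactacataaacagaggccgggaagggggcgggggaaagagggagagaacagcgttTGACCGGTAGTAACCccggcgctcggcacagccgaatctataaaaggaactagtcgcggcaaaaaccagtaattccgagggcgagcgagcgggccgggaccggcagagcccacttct
The same letters occurred in 0.718% of all 32851 windows and in 0.508% of the 14955 windows of tested genes. Of the 11 windows of 8 of the 13 listed LXR targets and cholesterol export genes, that of Abca1 alone held them. Abcg1, Scarb1, Abcg4, Npc1 and Lpl had no window in the table and were not searched.

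Further lipid genes had smaller differences. Srebf1, the regulator of fatty acid synthesis and an LXR target, measured 153, 168 and 188 CPM in mSOD1 medium and 119, 138 and 147 CPM in wtSOD1 medium, with 183, 201 and 223 CPM in NTg medium. The SOD1 media did not overlap, mSOD1 was the higher by 0.30 ± 0.07 (adjusted p = 0.00994), and the values against NTg medium were -0.26 ± 0.07 (adjusted p = 0.0344) for mSOD1 and -0.57 ± 0.07 (adjusted p = 3.34e-06) for wtSOD1. Exons of Srebf1 overlap Rai1. Scd2, a fatty acid desaturase, measured 2163, 2401 and 2469 CPM in mSOD1 medium and 1821, 2047 and 2090 CPM in wtSOD1 medium. It was higher in every mSOD1 library, by 0.23 ± 0.04 (adjusted p = 0.000575), with -0.12 ± 0.04 and -0.35 ± 0.04 for mSOD1 and wtSOD1 against NTg (adjusted p = 0.112 and 1.43e-06). Rnf145, a sterol-responsive ubiquitin ligase of the ER, measured 200.3, 213 and 222 CPM in mSOD1 medium and 167, 171 and 187 CPM in wtSOD1 medium. It rose by 0.30 ± 0.04 (adjusted p = 2.29e-06) without overlap, and stood at 0.02 ± 0.04 and -0.27 ± 0.04 against NTg (adjusted p = 0.772 and 2.24e-05).

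By list, 2 of 13 LXR targets and cholesterol export genes rose and 1 fell (median 0.07), where 2.48% of all genes rose and 0.894% fell. Lpl, which releases fatty acids from lipoproteins, fell by 0.62 ± 0.17 (adjusted p = 0.0343, lost without mSOD1 library 1, 3 or 5 or wtSOD1 library 2, 3, 5 or 6, adjusted p up to 0.157). With the block, where 9.48% of all genes rose and 6.08% fell, 3 of the 13 rose and 2 fell. Of 17 fatty acid synthesis genes 2 rose (5 with the block), Scd2 and Acaca (0.20 ± 0.05, adjusted p = 0.0269, lost without mSOD1 library 1, 3 or 6 or wtSOD1 library 2, 4 or 6, adjusted p up to 0.11). Of 27 genes of cholesterol synthesis and SREBP control 2 rose, Srebf1 and Hsd17b7 (0.23 ± 0.06, adjusted p = 0.0308, lost without mSOD1 library 1 or 3 or wtSOD1 library 2, 4 or 6, adjusted p up to 0.134), and 2 fell (5 with the block). Insig1, which retains SREBP in the ER, measured 65.7, 67.2 and 73.3 CPM in mSOD1 medium and 73, 82 and 86.4 CPM in wtSOD1 medium. The ranges touched, and Insig1 fell by 0.24 ± 0.05 (adjusted p = 0.00113), while Sc4mol, an enzyme of cholesterol synthesis, fell by 0.26 ± 0.07 (adjusted p = 0.0323, lost without mSOD1 library 1, 5 or 6 or wtSOD1 library 2, 4, 5 or 6, adjusted p up to 0.0872).

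Over all genes tested, 443 (2.91%) passed between mSOD1 and NTg medium and 15 (0.0986%) between wtSOD1 and NTg medium on day 3. Reg3b stood at 0.95 ± 0.14 against NTg in mSOD1 medium and at -0.36 ± 0.14 in wtSOD1 medium, where it did not pass (adjusted p = 0.9996). Lifr stood at 0.38 ± 0.07 and -0.10 ± 0.07, Fst at 0.65 ± 0.08 and -0.11 ± 0.08, and Asns at -0.16 ± 0.06 and 0.17 ± 0.06, the last 2 values lying on either side of 0. Neither of the Asns values passed (adjusted p = 0.116 and 0.9996). Slc7a5 passed against NTg in mSOD1 medium, where it fell by 0.30 (adjusted p = 0.00856), and stood at 0.23 ± 0.06 in wtSOD1 medium (adjusted p = 0.317). The median of the 14 fallen and 18 other ATF4 genes together was -0.24 in mSOD1 and 0.05 in wtSOD1 medium, and that of the 29 gp130 genes 0.14 and -0.02.

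**Figure D3:**
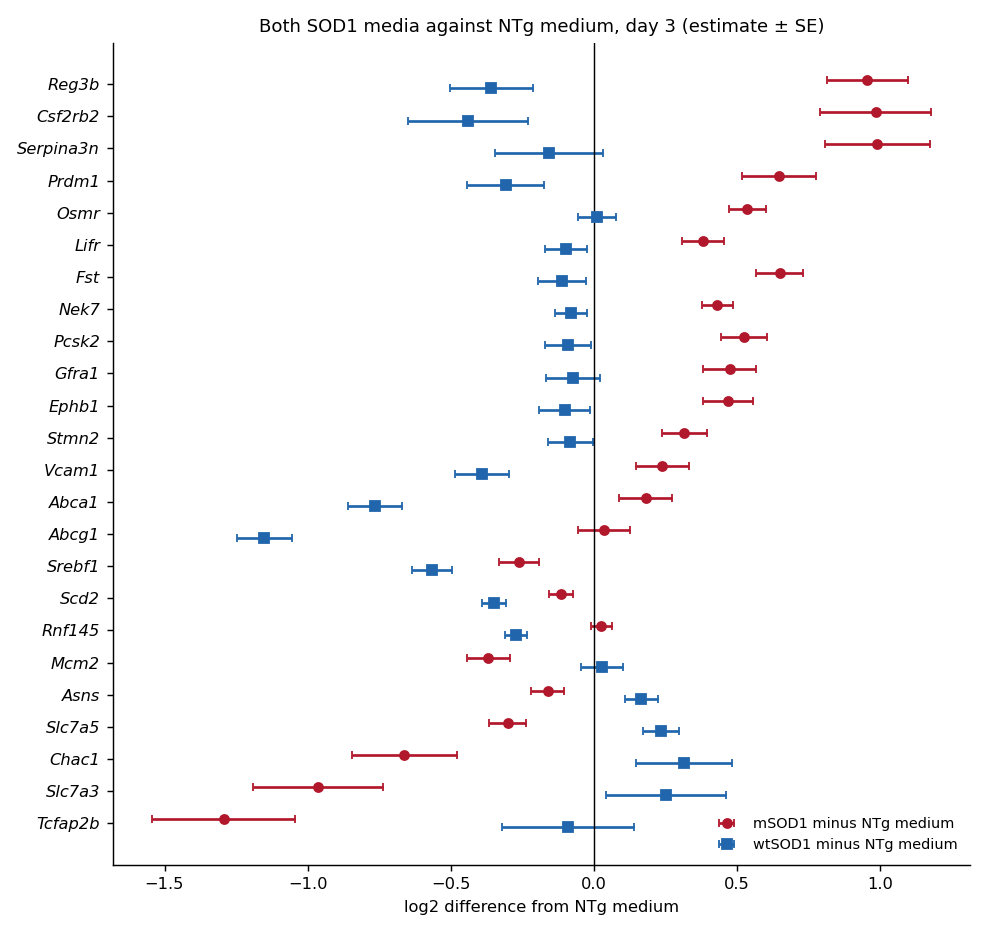
For 24 genes, red circles give the log2 difference of mSOD1 from NTg medium and blue squares that of wtSOD1 from NTg medium on day 3, each with its standard error (x axis, log2). Both comparisons use the same 6 NTg libraries. Blue squares lie near 0 for most genes and lie far to the left for Abcg1 and Abca1, where the red circles are near 0.

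Of 39 replication and mitosis genes 9 fell, 0 rose and 30 did not pass (median -0.26), where 0.894% of all genes fell, and 38 of the 39 had a negative difference. Mcm2, a subunit of the replicative helicase, measured 55.9, 67.5 and 75.6 CPM in mSOD1 medium and 74.4, 87.8 and 97 CPM in wtSOD1 medium. The groups overlapped by little, and Mcm2 fell by 0.40 ± 0.07 (adjusted p = 0.00127, 6 of 6). Mcm5, of the same complex, measured 39.7, 46.8 and 52.4 CPM in mSOD1 medium and 51.3, 64.3 and 67.8 CPM in wtSOD1 medium. It too overlapped by little and fell by 0.43 ± 0.09 (adjusted p = 0.0032, 6 of 6). The mitotic kinase Aurkb and the DNA methylation factor Uhrf1 fell by 0.42 ± 0.11 (adjusted p = 0.0266) and 0.35 ± 0.09 (adjusted p = 0.0293), the first call lost without mSOD1 library 1, 3 or 6 or wtSOD1 library 2, 3, 4, 5 or 6, adjusted p up to 0.105, and the second lost without mSOD1 library 1, 3 or 6 or wtSOD1 library 2, 4, 5 or 6, adjusted p up to 0.105. The helicase subunits Mcm3 and Mcm6, the cyclins Ccna2 and Ccnb2 and the checkpoint kinase Bub1b, named for the count, fell by 0.32, 0.25, 0.32, 0.32 and 0.32, and each of these 5 calls was lost without any 1 of 8 or 9 libraries. Mki67, a marker of dividing cells, measured 208, 237 and 297 CPM in mSOD1 medium and 235, 291 and 366 CPM in wtSOD1 medium. Each mSOD1 library was below its pair, the ranges overlapped, and the difference of -0.31 ± 0.11 missed the threshold (adjusted p = 0.107) and passed with the block (adjusted p = 1.05e-08). Fallen members numbered 2 (without mSOD1 library 1, 3 or 6 or wtSOD1 library 2, 4, 5 or 6) to 27 (without wtSOD1 library 1) with single libraries left out, 2 without wtSOD1 libraries 3 and 4, and 33 with the block (1 rose), where 6.08% of all genes fell. The summed levels of progenitor and dividing-cell markers are given above.

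Of 38 interferon-stimulated effector genes 3 rose on day 3, where 2.48% of all genes rose (median 0.20, against 0.70 for the same list on day 1, with medians near 0 over all genes on both days), and 1 of 24 genes of interferon signalling rose. With the block, where 9.48% of all genes rose, 6 and 3 rose. Ifi202b, a DNA-binding protein with close paralogs, measured 3.79, 4.79 and 8.5 CPM in mSOD1 medium and 1.27, 1.49 and 2.73 CPM in wtSOD1 medium. Without overlap, it rose by 1.68 ± 0.29 (adjusted p = 0.000379), the largest rise among genes under the naming rule. Ifi27l1 and Ifi27l2a rose by 0.66 ± 0.09 (adjusted p = 6.19e-06) and 0.66 ± 0.09 (adjusted p = 6.81e-06), and their levels are so alike in every library that they may share 1 set of reads. Irf9, the DNA-binding subunit of ISGF3, measured 21.8, 23.6 and 28.4 CPM in mSOD1 medium and 18.5, 19.4 and 20.9 CPM in wtSOD1 medium. It rose by 0.31 ± 0.07 (adjusted p = 0.0118) with no overlap, a call lost without mSOD1 library 1, adjusted p = 0.0644, and its exons overlap Rnf31. Stat2, a partner of Irf9, stood at 0.29 ± 0.09 (adjusted p = 0.0509) and passed with the block (adjusted p = 0.00478).

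Of 25 NF-kB genes 2 rose, Bcl3 and Vcam1, where 2.48% of all genes rose. Vcam1, an adhesion molecule, measured 93.1, 100.3 and 111 CPM in mSOD1 medium and 56.4, 66.5 and 75.8 CPM in wtSOD1 medium, with 77, 88.5 and 92.5 CPM in NTg medium. NTg medium lay between the others, and the rise from wtSOD1 to mSOD1 medium was 0.63 ± 0.09 (adjusted p = 5.94e-05, 6 of 6). Bcl3, a cofactor of NF-kB, measured 7.79, 8.62 and 10.8 CPM in mSOD1 medium and 4.8, 5.52 and 6.06 CPM in wtSOD1 medium. It rose by 0.74 ± 0.13 with no overlap (adjusted p = 0.000481). None of 8 chemokines passed in edgeR on day 3, nor with the block in all 36 libraries, and their median was 0.13 against 1.3 on day 1. Ccl2, which draws monocytes, measured 5.14, 7.05 and 9.38 CPM in mSOD1 medium and 4.23, 5.15 and 6.49 CPM in wtSOD1 medium, a difference of 0.44 ± 0.34 (adjusted p = 0.536, and 0.0208 in a fit of the 12 libraries alone with the experiment as a block, in which it passed). None of 16 MHC class I genes passed.

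On day 1 the same contrast called 153 genes (1.01%), 82 higher (0.539%) and 71 lower (0.467%). Of these 20 also passed in the same direction on day 3, which is 3.9% of the day 3 calls and 13.1% of the day 1 calls, and 1 passed in the opposite direction. The change of the difference from day 1 to day 3 was tested as an interaction and passed for 90 genes (0.592%), 69 with a higher difference on day 3 (0.454%) and 21 with a lower one (0.138%). Without day 3 wtSOD1 library 4 these numbered 26 and 12, and without day 3 wtSOD1 library 1 they numbered 255 and 70. On day 1, wtSOD1 library 4 held 88.9 M reads and NTg library 6 held 4.39 M reads, against 8.58 to 20.7 M reads in the other libraries. Without these day 1 libraries 39 genes had a higher difference on day 3 and 27 a lower one. Of the 90 genes, 53 were among them. Rdh10, which makes retinal for retinoic acid, is the gene that turned, from -0.42 ± 0.08 on day 1 (adjusted p = 0.00127) to a rise of 0.47 ± 0.08 on day 3 (adjusted p = 0.0002). Its levels on day 3 were 21.8, 24.1 and 25.3 CPM in mSOD1 and 15.1, 17.8 and 18.4 CPM in wtSOD1 medium, without overlap, and the interaction was 0.88 ± 0.11 (adjusted p = 5.97e-06).

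Genes with a higher difference on day 3 included the exporters and several cytokine-linked genes. The interaction was 1.09 ± 0.13 for Abca1 (adjusted p = 5.97e-06), 1.02 ± 0.14 for Abcg1 (adjusted p = 3.89e-05) and 1.88 ± 0.31 for Csf2rb2 (adjusted p = 0.000525). It was 0.76 ± 0.09 for Osmr (adjusted p = 5.97e-06), 1.2 ± 0.19 for Prdm1 (adjusted p = 0.000401), 0.60 ± 0.08 for Nek7 (adjusted p = 1.36e-05) and 0.65 ± 0.11 for Pcsk2 (adjusted p = 0.00114). A lower difference on day 3 was found for Usp18, a protease that restrains interferon signalling, which went from 2.14 ± 0.20 to -0.04 ± 0.23 (interaction adjusted p = 3.75e-05), and for Ccl2, from 3.58 ± 0.34 to 0.44 ± 0.34 (interaction adjusted p = 0.000401). The difference of Slc7a5 did not pass as unlike between days, at -0.28 ± 0.06 on day 1 (adjusted p = 0.013) and -0.54 ± 0.06 on day 3 (interaction adjusted p = 0.16), nor did that of Mthfd2, at -0.43 ± 0.06 and -0.40 ± 0.06 (interaction adjusted p = 0.925). A p that misses the threshold does not show that the days were alike.

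**Figure D4:**
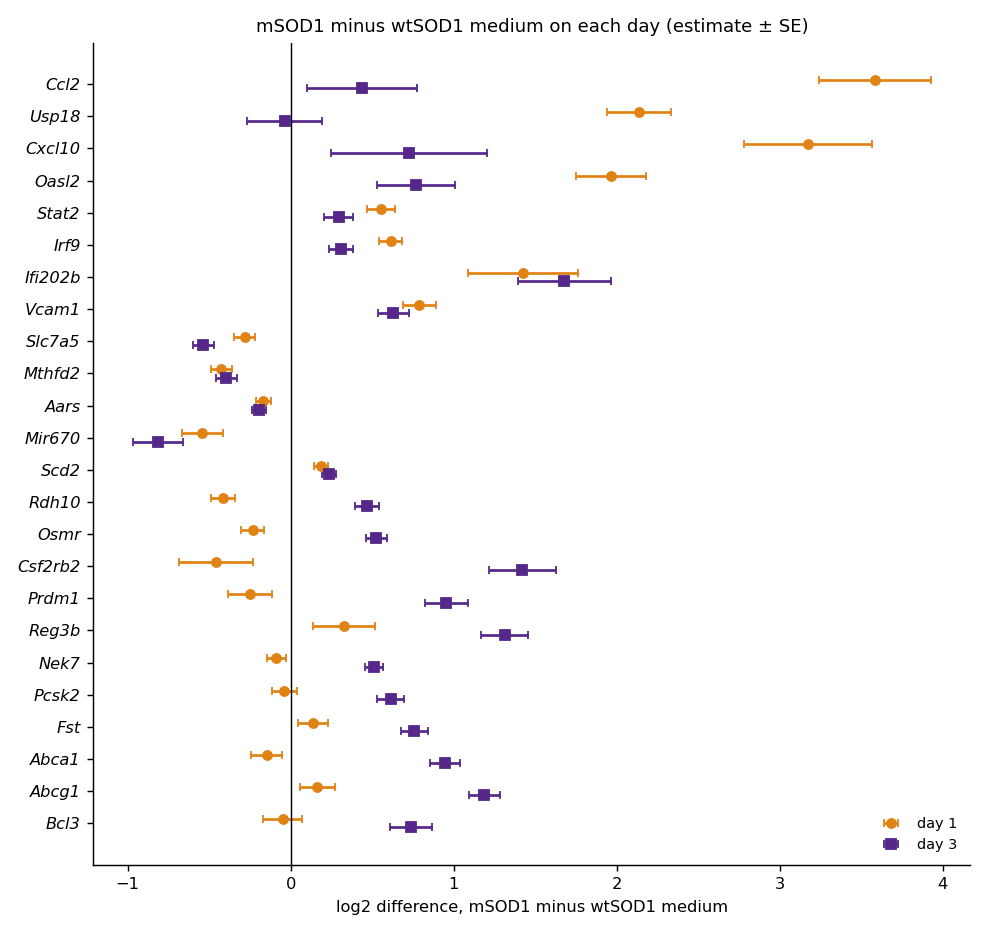
For 24 genes, orange circles give the log2 difference, mSOD1 minus wtSOD1 medium, on day 1 and purple squares that on day 3, each with its standard error (x axis, log2). The orange circles of Ccl2, Usp18, Cxcl10 and Oasl2 lie far to the right of their purple squares, and those of Csf2rb2, Prdm1, Abca1 and Abcg1 lie to the left.

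Several of the largest changes fell in no list, and the metallothioneins Mt1 and Mt2, which are on a list, are given with them below. Among those that rose, Wt1, a transcription factor of kidney and gonad, measured 3.09, 3.71 and 4.79 CPM in mSOD1 medium and 1.57, 1.86 and 2.41 CPM in wtSOD1 medium. The levels were low, the groups did not overlap, and the rise was 0.94 ± 0.19 (adjusted p = 0.0031). Gata6, an endoderm transcription factor, rose by 0.80 ± 0.14 (adjusted p = 0.000526), Ly6a, a surface protein, by 0.94 ± 0.19 (adjusted p = 0.00263), Nod2, a sensor of bacterial wall fragments, by 0.91 ± 0.19 (adjusted p = 0.00428), and Adamts2, which trims procollagen, by 0.81 ± 0.16 (adjusted p = 0.00177). All 5 calls held with each library left out. Lypd6b rose by 0.80 ± 0.22 (adjusted p = 0.0308, lost without mSOD1 library 1, 4 or 6 or wtSOD1 library 2, 3, 4 or 6, adjusted p up to 0.125).

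Among those that fell, Tcfap2b, a regulator of kidney and neural crest development, measured 1.47, 2.51 and 2.89 CPM in mSOD1 medium and 2.16, 5.7 and 7.82 CPM in wtSOD1 medium. The wtSOD1 libraries spread widely and overlapped the mSOD1 range, and it fell by 1.2 ± 0.25 (adjusted p = 0.00337, 6 of 6). Mdk, midkine, a heparin-binding growth factor, measured 40.5, 56.2 and 62.1 CPM in mSOD1 medium and 68.3, 85.4 and 92.8 CPM in wtSOD1 medium. The groups did not overlap, and Mdk fell by 0.64 ± 0.11 (adjusted p = 0.000331, 6 of 6). The metallothioneins Mt2 and Mt1, which bind zinc and copper, fell by 0.67 ± 0.15 (adjusted p = 0.00883) and 0.59 ± 0.15 (adjusted p = 0.0214), the latter a call lost without mSOD1 library 1, 3 or 5 or wtSOD1 library 2 or 4, adjusted p up to 0.0965. They were the 2 of 25 NRF2 targets and metallothioneins that passed, where 0.894% of all genes fell. With the block, where 6.08% of all genes fell, 5 of the 25 fell. Hhip, an inhibitor of hedgehog ligands, fell by 0.66 ± 0.17 (adjusted p = 0.0219, lost without mSOD1 library 1, 3 or 5 or wtSOD1 library 2 or 4, adjusted p up to 0.116). Zfp185 and C130026L21Rik fell by 0.66 ± 0.15 (adjusted p = 0.00772) and 1.01 ± 0.21 (adjusted p = 0.0035). Selenbp1, Smoc2, Moxd1 and 2810442I21Rik fell by 0.80, 0.75, 0.68 and 0.62 (adjusted p = 0.0199, 0.0445, 0.0499 and 0.0428), and their calls were lost without mSOD1 library 1, 3 or 5 or wtSOD1 library 2 or 4, adjusted p up to 0.0932 (Selenbp1), without mSOD1 library 1, 3, 4, 5 or 6 or wtSOD1 library 2, 4, 5 or 6, adjusted p up to 0.135 (Smoc2), without mSOD1 library 1, 3, 4, 5 or 6 or wtSOD1 library 2, 3, 4 or 6, adjusted p up to 0.224 (Moxd1) and without mSOD1 library 1, 3, 4, 5 or 6 or wtSOD1 library 2, 4, 5 or 6, adjusted p up to 0.161 (2810442I21Rik).

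Retinoic acid genes moved in both directions, 3 of 20 rising and 2 falling, where 2.48% of all genes rose and 0.894% fell. Besides Rdh10, Cyp26b1, which degrades retinoic acid, rose by 0.94 ± 0.24 (adjusted p = 0.0227, lost without mSOD1 library 1 or 3 or wtSOD1 library 2, 4 or 6, adjusted p up to 0.11) and the cofactor Meis2, named for the count, by 0.21 ± 0.06 (adjusted p = 0.0428, lost without mSOD1 library 1, 3 or 6 or wtSOD1 library 2, 3, 4, 5 or 6, adjusted p up to 0.184). Rara, a retinoic acid receptor, measured 29.2, 31.9 and 34.2 CPM in mSOD1 medium and 34.9, 39.2 and 41.5 CPM in wtSOD1 medium. It fell by 0.27 ± 0.06 without overlap (adjusted p = 0.00786). Dhrs3, which reduces retinal to retinol, measured 1.91, 3.19 and 4.02 CPM in mSOD1 medium and 1.84, 6.53 and 10.2 CPM in wtSOD1 medium. Library 1 in wtSOD1 medium was below every mSOD1 library, so that 5 of 6 pairs were lower, and the fall by 1.06 ± 0.28 (adjusted p = 0.0282) was lost without mSOD1 library 1, 3 or 6 or wtSOD1 library 2, 4, 5 or 6, adjusted p up to 0.15.

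In the lists of metabolism, activity and adhesion 1 to 3 members passed, where 2.48% of all genes rose, and a count of 1 in lists of 27 to 49 genes is near that share. Of 34 genes of glycolysis and the hypoxia response 3 rose (8 rose and 2 fell with the block), the glycolytic regulator Pfkfb3 by 0.20 ± 0.04 (adjusted p = 0.00158), the hypoxia factor Hif1a by 0.15 ± 0.04 (adjusted p = 0.0199, lost without mSOD1 library 1 or 3 or wtSOD1 library 6, adjusted p up to 0.0841) and the lactate carrier Slc16a3 by 0.66 ± 0.18 (adjusted p = 0.0357, lost without mSOD1 library 1, 3, 5 or 6 or wtSOD1 library 2, 4 or 5, adjusted p up to 0.156). Of 49 oxidative phosphorylation genes 1 rose, Ndufs4 (0.15 ± 0.04, adjusted p = 0.0272), and of 28 motor proteins 1 rose, the kinesin Kif5c (0.23 ± 0.07, adjusted p = 0.0404). The call of Ndufs4 was lost without mSOD1 library 1, 3 or 6 or wtSOD1 library 2, 4, 5 or 6, adjusted p up to 0.0833, and that of Kif5c without mSOD1 library 1, 3, 5 or 6 or wtSOD1 library 2, 4, 5 or 6, adjusted p up to 0.159. With the block, where 9.48% of all genes rose and 6.08% fell, 8 motor proteins and 5 immediate-early genes rose, and 5 laminins and integrins fell. Of 30 immediate-early genes 1 rose, Fosl2 (0.30 ± 0.07, adjusted p = 0.00585), and Jun stood at 0.21 ± 0.07 (adjusted p = 0.105) and passed with the block (adjusted p = 0.000627). Of 27 laminins and integrins 1 rose, the laminin receptor subunit Itga7. It measured 50.1, 61.5 and 76.4 CPM in mSOD1 medium and 27.2, 40.5 and 57.6 CPM in wtSOD1 medium, ranges that overlapped, a rise of 0.63 ± 0.13 (adjusted p = 0.0031, 6 of 6), and its exons overlap Mettl7b. Of 25 p53 targets 1 fell, where 0.894% of all genes fell. This was Sesn2, a nutrient sensor also on the ATF4 list. It fell by 0.24 ± 0.06 (adjusted p = 0.0269, lost without mSOD1 library 1, 3 or 6 or wtSOD1 library 2, 3 or 4, adjusted p up to 0.128). With the block 2 other p53 targets rose.

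No member passed in several lists of interest to the disease. These were 27 genes mutated in familial ALS (median -0.06), 21 BCL2 family members and caspases, 11 genes of the APP family and death receptor 6, and 23 cytosolic and mitochondrial chaperones. With the block 9.48% of all genes rose and 6.08% fell. In that fit 1 ALS gene rose and 2 fell, 1 BCL2 family member or caspase rose and 1 fell, 3 APP family genes rose, and no chaperone passed. Of 15 necroptosis and death receptor genes 1 rose without the block, where 2.48% of all genes rose, and 3 rose with it. The 1 was Dcc, described above as a guidance receptor. Kif5a, on the ALS list, stood at 0.25 ± 0.09 (adjusted p = 0.0902, 1.13e-06 with the block), and App, the amyloid precursor, at 0.15 ± 0.05 (adjusted p = 0.0686, 0.000176 with the block). The 49 ribosomal proteins, 19 Hox genes, 23 progenitor and interneuron fate genes and 19 collagens also had no member past the threshold, and 45 of the 49 ribosomal proteins had a negative difference (median -0.09). With the block 3 ribosomal proteins, 5 collagens and 1 progenitor or interneuron fate gene fell, and 2 Hox genes rose and 1 fell. Col1a1 stood at 0.05 ± 0.17 (adjusted p = 0.923).

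**Figure D5:**
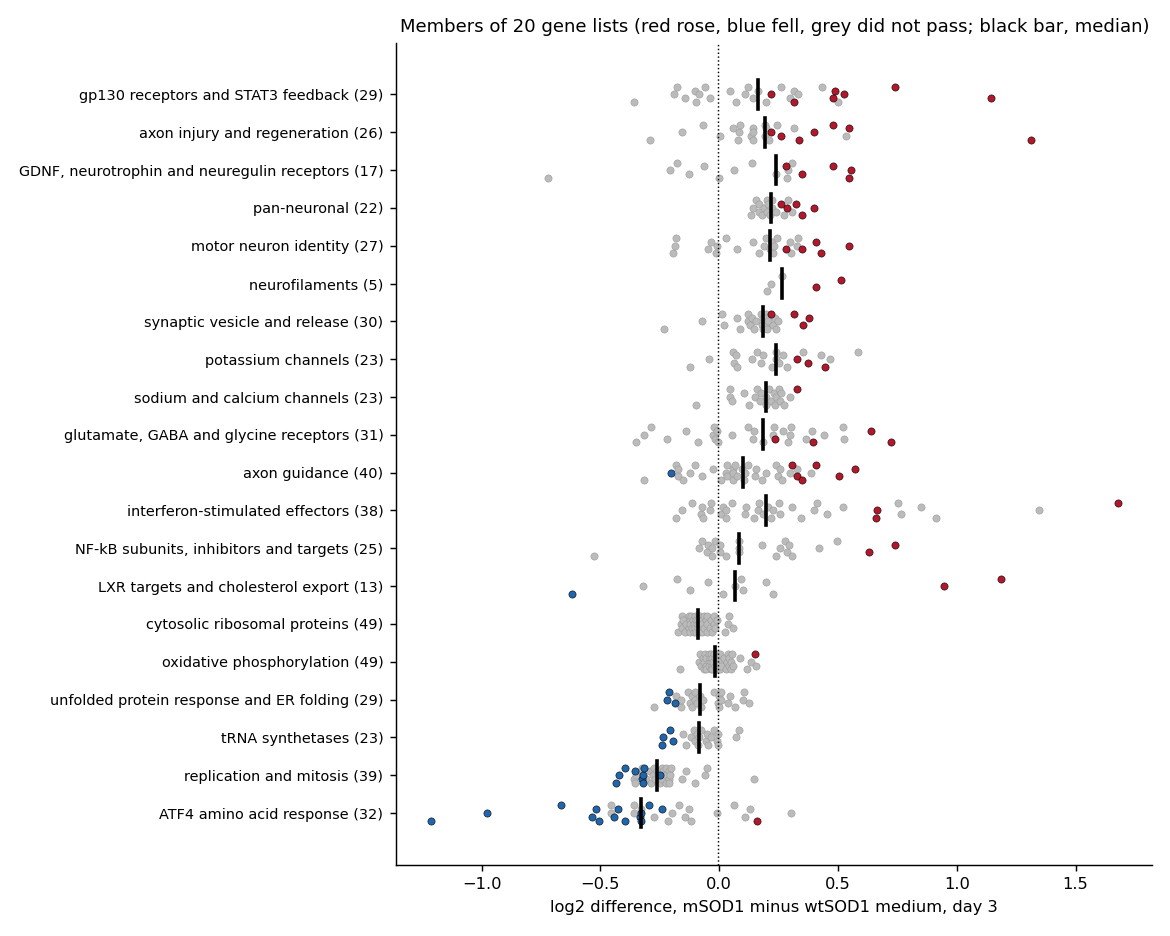
Each point is a gene of 1 of 20 lists (rows, with the number tested), placed by its log2 difference, mSOD1 minus wtSOD1 medium on day 3 (x axis). Red members rose, blue members fell, grey members did not pass, the black bar is the median of the list and the dotted line the median of all genes. The bars of the neuronal lists lie to the right of the dotted line, near 0.2, and those of the ATF4 and replication lists to the left, at -0.33 and -0.26.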

How the data were processed

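The authors deposited 1 table per library with a read count per gene, in whole numbers, and a second column of transformed expression on a log2-like scale, per the file headers. TopHat 1.3.3, DESeq and the build mm9 are named in the submitters' processing notes. The sources used here give no counting program, annotation or strandedness, so reads of overlapping genes may be shared. Counts of 36 libraries were fitted with edgeR 4.0.16 (R 4.3.3; TMM scaling, low-count filter by group, 6 group means, 30 residual degrees of freedom, robust quasi-likelihood F-test), with Benjamini-Hochberg adjustment over 15207 genes and a threshold of 0.05. The script was tested on simulated data. Levels are counts per M reads of the TMM-scaled library size (CPM), and log2 values used a prior count of 2.

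Same-numbered libraries deviated together (mean r 0.374, from 0.11 to 0.746, over 11502 genes), and 6 of 6 pairs passed an r of 0.1, so the numbers were taken as pairs. The mean r of different numbers was -0.073, but deviations from a group's own mean cancel, which makes it negative whenever same-numbered libraries correlate. Libraries 1, 2 and 5 in wtSOD1 medium correlated most with their own number. Library 3 there correlated more with mSOD1 library 1 (r 0.351, own number 0.11) and library 4 with mSOD1 library 2 (0.357, own 0.267). Library 6 did so with mSOD1 library 5 (0.296, own 0.17). Genes were named if among the 15 largest differences in each direction (average log2 CPM of at least 1, at least 5 of 6 pairs alike), the 10 lowest p-values, the 4 lowest p-values of a list, the 10 lowest p-values of the day interaction, or 8 fixed genes, of which Aif1 did not pass the filter, and not all of them are described, a few results being not reported here. The comparison, lists and rule were chosen with earlier results of these data known, and 1132 of 1136 listed genes were matched. Alternatives were the replicate block, subsets of libraries, DESeq2 1.42.0, limma 3.58.1 (voom, and the deposited log2 column), other scalings and filters, leave-outs and a test against a 1.2-fold difference, the last and the omission of wtSOD1 libraries 3 and 4 being added after the data were seen. Exon overlaps come from GENCODE on GRCm38.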

Additional observations from a re-analysis of the deposited data

Results flagged for a closer look

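In 25 of 262 groups of 6 day 3 libraries (the mSOD1 or wtSOD1 libraries of 1 named gene), 1 library lay far from the other 5 by Dixon's test, where chance flags about 1 in 20 groups. Genes that share a library are not independent cases of this.

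Library 1 was the one apart in 14 of the 25, and mSOD1 library 3 in 3. In mSOD1 medium, library 1 measured 84 CPM of Reg3b (others 49.4 to 62.3), 86.5 CPM of Serpina3n (52.8 to 65.4), 107 CPM of Nefh (65.4 to 75.3), 288 CPM of Il6st (243 to 259) and 2163 CPM of Scd2 (2361 to 2469). It also measured 31 CPM of Ifi27l1 (21.5 to 24.2) and 31.2 CPM of Ifi27l2a (21.6 to 24.3). In wtSOD1 medium, library 1 measured 2.73 CPM of Ifi202b (1.27 to 1.74), 44.9 CPM of Serpina3n (18.5 to 27.4), 68.3 CPM of Mdk (83.9 to 92.8), 73.1 CPM of Tars (86.4 to 90.4), 1821 CPM of Scd2 (2027 to 2090), 9.46 CPM of Nts (5.5 to 6.54) and 41.1 CPM of Aurkb (55.2 to 60.5).

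In mSOD1 medium, library 3 measured 44.9 CPM of Chrm3 (22.1 to 29.4), 22.2 CPM of Gabrg3 (7.29 to 11.6) and 32.6 CPM of Grin2a (15.3 to 18.6), receptors of acetylcholine, GABA and glutamate. Library 2 measured 2.15 CPM of C130026L21Rik (1.44 to 1.67), 13.7 CPM of Moxd1 (6.31 to 9.02) and 54.2 CPM of Stx1a (64.7 to 70.6) there. In wtSOD1 medium, library 2 measured 44.6 CPM of Acvr1 (50.2 to 52) and 149.7 CPM of Jun (181 to 198). Library 3 measured 187 CPM of Rnf145 (167 to 173), and library 5 measured 2.46 CPM of Csf2rb2 (1.34 to 1.7) and 1.94 CPM of Nod2 (1.47 to 1.61).

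The difference between mSOD1 and wtSOD1 medium was not alike on days 1 and 3 for 23 named genes (interaction term of edgeR's fit, adjusted p below 0.05), and the values are the day 3 difference less the day 1 difference, on the log2 scale. Among cytokine-linked and secreted genes it was 1.88 for Csf2rb2, 1.41 for Serpina3n, 1.2 for Prdm1, 0.99 for Reg3b, 0.79 for Bcl3, 0.76 for Osmr, 0.62 for Fst and 0.41 for Socs2. For lipid genes it was 1.09 for Abca1, 1.02 for Abcg1 and -0.29 for Insig1. It was 1.14 for Wt1, 1.11 for Chrm3, 0.90 for Gata6, 0.88 for Rdh10, 0.65 for Pcsk2, 0.60 for Nek7, 0.59 for Arhgap36, 0.53 for Ephb1, 0.39 for Fosl2 and 0.35 for Acvr1. Like that of Insig1, the values of Ccl2 and Usp18 were negative, at -3.15 and -2.17.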

How the results depend on the processing

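Against 377 risen and 136 fallen genes, the replicate block gave 1441 and 925 (1883 and 1563 in the 12 libraries alone), and for the day interaction 1125 and 524 in place of 69 and 21. The 12 libraries without the block gave 211 risen and 109 fallen genes, with 260 of the 513 calls among them, and 31 named genes lost their call. The 18 day 3 libraries gave 253 fallen genes, and DESeq2 230 fallen and, for the interaction, 169 and 64. Added after seeing the data, omission of wtSOD1 libraries 3 and 4 gave 147 and 38, and the test against a 1.2-fold difference, a stricter question, 23 and 4. Omitting the day 1 libraries that stood apart (wtSOD1 library 4 and NTg library 6) gave 39 genes with a higher difference on day 3. A lower one was found for 27 genes, and 53 of the 90 interaction calls remained. With 1 library or 1 whole experiment left out, between 153 (without experiment 6) and 909 (without wtSOD1 library 1) genes rose and between 38 and 437 fell, in the same order, and the interaction gave 23 to 255 and 8 to 70. Why these counts moved was not tested. Of the named genes 108 passed, 20 of them under each of 32 alternatives and Ifi202b under the 31 that gave it an adjusted p (DESeq2 gave none), 87 were lost under at least 1, and 0 reversed. The test against a 1.2-fold difference by itself ended 87 calls, and some, such as those of Lifr, Stmn2 and Asns, were lost only there. The next most were 45 calls lost, without experiment 3 and without wtSOD1 libraries 3 and 4. The block ended 0 of the 108 calls and added 14 of the 22 named genes that had not passed. Genes that had not passed turned sign in some settings. Over the omissions of 1 library or experiment Isl1 ranged from -0.00767 (without wtSOD1 library 2) to 0.16, Col1a1 from -0.027 (without mSOD1 library 5; -0.00946 without wtSOD1 library 2) to 0.13, Usp18 from -0.10 to 0.018 (without wtSOD1 library 5) and Gfap from -0.19 to 0.36. Gfap was negative without mSOD1 library 1 (-0.077) or 2 (-0.19) and without experiment 1 (-0.12) or 2 (-0.14), with limma-voom (-0.23) and on the deposited log2 values (-0.00806). Low-level genes such as Gfap, Csf2rb2 and Trib3 rest on few reads.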
